A study of Caenorhabditis elegans with 2 samples.

Results

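The genes of piRNAs, the short guide RNAs of Piwi proteins, were examined in a map of where the protein ALY-2 sits on the chromatin of Caenorhabditis elegans larvae. They were all 15363 genes of biotype piRNA, with names that start with 21ur-, among the 46890 genes annotated on the 6 nuclear chromosomes of WBcel235. A region of the map was called a piRNA region when its summit, the position of its highest signal, lay within 500 bp of a piRNA gene. This held for 861 of the 17335 regions on the list made from the pooled replicates (4.97%, 95% Wilson interval 4.65 to 5.30%), and the other 16474 served as the comparison.

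The map came from chromatin immunoprecipitation and sequencing (ChIP-seq) of whole L3 larvae. The worms, of both sexes pooled and of unknown age, were of the strain OP217, genotype unc-119(ed3) III; ddIs172, and carried an eGFP-tagged aly-2 transgene. ALY-2 is a protein of the Aly/REF kind, adaptors that load onto RNA as it is made and help to export it from the nucleus. Both samples were biological replicates, numbered 1 and 2, of this single group, so every comparison is between genomic regions or between replicates. The sources used here give neither the promoter nor the copy number of the transgene, no control samples were analysed here, and whole larvae mix the germline with all other tissues.

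In C. elegans each piRNA, also called a 21U-RNA, is bound by the Piwi protein PRG-1 and guides the silencing of matching transcripts in the germline. Most of these genes form clusters on chromosome IV, where each has its own small promoter with a conserved upstream motif and is transcribed into a short precursor of its own; the factors SNPC-4 and PRDE-1 act at these clusters. A smaller class is made at the promoters of protein-coding genes across the genome and lacks the motif. The question put to the map was where its regions lay relative to these genes, how high they ranked and how often both replicates found them.

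The sequences of the piRNA genes beside the highest regions show what these genes look like. The genes nearest to the 6 piRNA regions on the authors' optimal list, the short list of reproducible peaks, are given 5′ to 3′ on the gene's strand from the RefSeq copy of WBcel235 (ce11). The piRNA is in capitals. Where 60 bases before it are printed, capitals there mark a match to the upstream motif CTGTTTCA with at most 1 mismatch.
21ur-6059: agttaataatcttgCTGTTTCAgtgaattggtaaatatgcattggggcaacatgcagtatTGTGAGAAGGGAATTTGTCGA
21ur-10291: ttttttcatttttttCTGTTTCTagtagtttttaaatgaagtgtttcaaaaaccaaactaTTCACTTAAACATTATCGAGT
21ur-1607: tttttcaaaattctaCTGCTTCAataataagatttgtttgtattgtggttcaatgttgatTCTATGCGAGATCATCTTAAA
21ur-13751: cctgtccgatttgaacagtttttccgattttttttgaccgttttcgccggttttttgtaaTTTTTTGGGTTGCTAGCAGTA
21ur-7565: TCCCATTTCGAATTGTGGAAT
21ur-13952: TTTGCATCTGAGTGAAGTGAA

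All 6 began with T, the U of a 21U-RNA. 21ur-6059 (chrIV:5986381-5986401, minus strand) lay in an intron of unc-44 and had the exact motif, starting at position -46 from the piRNA's first base. 21ur-10291 (chrIV:14837999-14838019, minus strand), in an intron of Y57G11C.22, had the motif with 1 mismatch, as did 21ur-1607 (chrIV:13894177-13894197, plus strand), which lay between protein-coding genes. 21ur-7565 (chrIV:6846400-6846420, minus strand) also had it with 1 mismatch and lay in the 3′ UTR of R13H7.2. The genes on other chromosomes were further from the motif: 21ur-13952 (chrIII:4015917-4015937, minus strand), in the 3′ UTR of the β-tubulin gene tbb-2, had 2 mismatches at best in the usual place. 21ur-13751 (chrII:1320733-1320753, plus strand), between protein-coding genes, had 3.

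The DNA under 2 of the summits is shown because, of the 3 optimal peaks inside the dense piRNA domains of chromosome IV, they are the one with the greatest height and the one with the most piRNA genes around it. These are 151 bases of the plus strand, at chrIV:14838144-14838294 and chrIV:13894121-13894271. Capitals mark a piRNA gene, here 21ur-1607.
summit at 21ur-10291: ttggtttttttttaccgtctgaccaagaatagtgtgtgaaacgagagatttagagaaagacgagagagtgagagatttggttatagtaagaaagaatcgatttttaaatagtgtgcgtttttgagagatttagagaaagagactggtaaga
summit at 21ur-1607: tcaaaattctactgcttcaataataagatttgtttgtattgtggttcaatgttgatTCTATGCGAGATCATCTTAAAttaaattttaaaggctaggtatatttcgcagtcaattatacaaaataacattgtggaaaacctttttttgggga

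The first window, 34.4% G and C, held no piRNA gene, and 21ur-10291 began 200 bp from its summit. In the second, 28.5% G and C, the summit fell 19 bp into 21ur-1607 itself. A second annotated piRNA gene, 21ur-14334, overlapped it with a start 1 base earlier.

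The annotated genes had the length and first base that the name 21U-RNA states, which describes the members and is no separate check of their label. All 15363 genes were 21 bp long, and 14784 (96.2%) began with T. Among all of them, 6219 (40.5%) overlapped another piRNA gene on the same strand, so many members share sequence. The motif stood in the 80 bp upstream of 5173 of them (33.7%, 32.9 to 34.4%), against 1.30% on the opposite strand, 3.78% in the same length downstream and 0.436% upstream of the 19973 protein-coding genes. Of the genes with the motif, 4975 (96.2%) had it start between positions -49 and -43, most often at -46 (1739 genes). Chromosome IV held 14714 piRNA genes (95.8%), and 14168 of them lay in 2 dense domains, here bins of 100 kb with at least 50 piRNA genes joined across gaps of up to 300 kb. The left domain (chrIV:4800001-6600000) had 2658 piRNA genes, and the right domain (chrIV:13600001-17300000) had 11510. Allowing 1 mismatch at these positions, 75.5% of the genes in the domains matched the motif, 62.6% on the rest of chromosome IV and 39.0% on the other chromosomes.

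Each region's height is the authors' signal value, which ranked regions within a list; its scaling is not stated in the sources used here. The pooled list had heights from 14.2 to 178.6. The optimal list was its 368 highest regions (2.12% of 17335), so a place on the optimal list and a high rank are the same measure. The list of replicate 1 held 30000 regions and that of replicate 2 held 26751. No read counts were used, so the depth is unknown. Intervals on shares and densities cover counting error over regions, not differences between animals.

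In the pooled list and in replicate 2 regions were about as dense beside piRNA genes as in the same domains away from them, and in replicate 1 they were denser. In the pooled list, inside the domains, 625 of 913 regions were piRNA regions (68.5%, 65.4 to 71.4%), and 68.8% of the bases there lay within 500 bp of a piRNA gene. This gave 165 regions per Mb (95% exact Poisson interval 152 to 179) beside piRNA genes and 168 (149 to 188) away from them. In replicate 1 it was 349 (330 to 368) and 238 (216 to 263), with intervals apart, and in replicate 2 it was 234 (219 to 250) and 239 (217 to 264). On the other chromosomes 121 of 14255 regions were piRNA regions (0.849%, 0.711 to 1.01%), where 0.778% of bases were that close. Their density was 188 regions per Mb (156 to 224), against 172 (169 to 175) for the rest of those chromosomes. Replicate 1 again showed the wider gap, 354 (309 to 403) against 298 (295 to 302), and in replicate 2 it was 287 (247 to 332) against 266 (263 to 270).

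On the rest of chromosome IV piRNA regions were denser in the pooled list and in replicate 1, but not beyond the interval in replicate 2. Of 2167 regions there 115 were piRNA regions (5.31%, 4.44 to 6.33%), against 3.80% of bases. The density was 252 regions per Mb (208 to 303) beside the 546 piRNA genes of that stretch and 178 (170 to 186) elsewhere in it, and these intervals did not overlap. In replicate 1 the densities were 393 (337 to 454) and 291 (282 to 301), and in replicate 2 they were 289 (242 to 343) and 282 (273 to 292). Over whole lists the summits of replicate 1 were 33.1% ± 8.36 G and C (SD over 30000 regions) and those of replicate 2 34.4% ± 8.91 (26751 regions); the part of base composition in this difference between replicates was not tested. In the pooled list the single highest density by position was also there, 402 regions per Mb (20 regions, 245 to 620) in the first 100 bp after the piRNA's 5′ end. It is the highest of many steps, and its interval includes the 252 of all piRNA neighbourhoods of that stretch.

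Within the domains the density showed no single favoured position. In steps of 100 bp from 500 bp upstream to 500 bp downstream of the nearest piRNA 5′ end it lay between 100 and 187 regions per Mb. The 100 bp just upstream, which hold the motif, had 171 summits (185 per Mb, 158 to 215), and the 100 bp downstream had 149 (165 per Mb, 139 to 193).

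**Figure D1:**
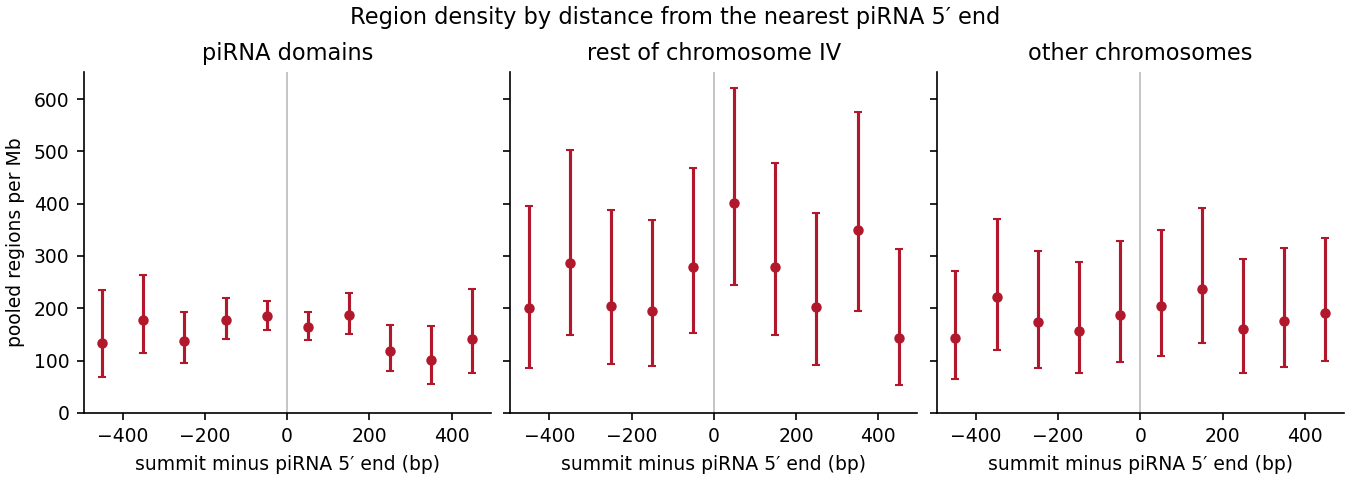
Pooled regions per Mb (y axis) by signed distance of the summit from the nearest piRNA 5′ end in bp (x axis, upstream negative), in steps of 100 bp; points are densities, bars 95% exact Poisson intervals. In the domains the points run from 100 to 187 per Mb. On the rest of chromosome IV the highest point, 402 per Mb, is just downstream of the 5′ end, and its bar overlaps all others there.

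Nor did the density rise with piRNA gene number along the chromosome. The 55 bins of 100 kb in the domains held from 44 to 486 piRNA genes and a median of 16 regions (6 to 40). The other 120 bins of chromosome IV held at most 48 piRNA genes and a median of 18 regions (7 to 46). Across the domain bins Spearman's rho between the 2 counts was -0.09 and Pearson's r -0.09, as a description over neighbouring bins of the same lists. Across all 175 bins rho was -0.04.

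**Figure D2:**
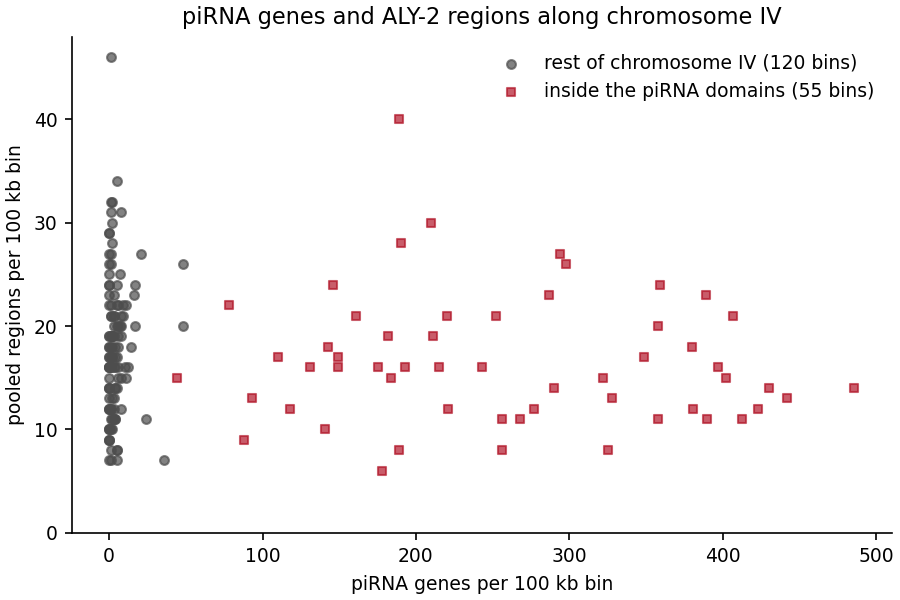
Pooled regions (y axis) against annotated piRNA genes (x axis) in each 100 kb bin of chromosome IV, with the 55 domain bins as squares and the other 120 as circles. The domain bins hold about as many regions, median 16, as the other bins, median 18.

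Counted by gene, 2656 of the 15363 piRNA genes (17.3%) had a pooled region within 500 bp. Of the 19973 protein-coding genes 19.4% had one within 500 bp of the 5′ end, a window of nearly the same length. On the longer lists of replicates 1 and 2 it was 33.4% and 22.8%. In the pooled list the share was 17.1% of the 14168 genes in the domains, 23.3% of the 546 on the rest of chromosome IV and 17.4% of the 649 on other chromosomes. Neighbouring piRNA genes share regions, so the genes are not independent: the 2416 genes with a region in the domains rested on 625 regions, each with a median of 4 piRNA genes within 500 bp. Genes with the exact upstream motif had a region as often (886 of 5173, 17.1%) as genes without it (1770 of 10190, 17.4%).

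The shares differed more by where a piRNA gene lay relative to protein-coding genes than by its motif. In the domains 24.7% of the 1044 piRNA genes within 500 bp of a protein-coding 3′ end had a region. For the 4167 in introns the share was 20.7%. It was 14.5% for the 7577 intergenic genes, 14.1% for the 1218 near a 5′ end and 13.0% for the 162 in exons.

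The piRNA regions were rarely among the highest. On the optimal list were 6 of 861 (0.697%, 0.320 to 1.51%), against 362 of 16474 other regions (2.20%, 1.98 to 2.43%) and 2.12% of all regions. The gap was widest inside the domains, where 3 of 625 piRNA regions (0.480%, 0.163 to 1.40%) but 15 of the 288 other regions (5.21%, 3.18 to 8.41%) were optimal. Taken whole, the domains held 18 optimal peaks among 913 regions (1.97%), close to the share over all regions. On the rest of chromosome IV 1 of 115 piRNA regions was optimal (0.870%, 0.154 to 4.76%), and on the other chromosomes 2 of 121 (1.65%, 0.454 to 5.83%), against 2.24% and 2.13% of the other regions there. Those intervals are too wide to tell the shares apart.

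The ranks showed the same order. As a rank percentile, with 0 the highest region and 100 the lowest, the median piRNA region stood at 54.9 (95% interval 51.0 to 58.7) and the median other region at 49.8. In the domains the medians were 56.9 (52.7 to 60.9) near piRNA genes and 40.0 (35.1 to 46.1) away from them, and the corresponding median heights were 17.4 and 19.4. Both domains showed it, with 57.4 against 40.7 in the left and 56.3 against 39.6 in the right. Outside the domains the medians hardly differed: 49 against 49.1 on the rest of chromosome IV, and 46.1 (36.7 to 64.2) against 50 on the other chromosomes.

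The replicates did not show this shift in rank equally. In replicate 2 the domain medians were 53.3 (49.9 to 57.0) for 885 piRNA regions and 44.1 (38.1 to 48.1) for 411 others. In replicate 1 they were 51.5 (48.7 to 53.5) for 1320 piRNA regions and 50.2 (42.6 to 55.9) for 409 others, and these intervals overlap. The top of the lists was alike in both: among the 368 highest regions were 7 of those piRNA regions in replicate 1 (0.530%) and 9 of the others (2.20%). In replicate 2 the counts were 2 (0.226%) and 12 (2.92%). These 368 came from 30000 regions in replicate 1 and from 26751 in replicate 2. Over all chromosomes they included 1.26% of the regions away from piRNA genes in replicate 1 and 1.41% in replicate 2. The other domain regions were thus above the share of such regions over all chromosomes, and the domain piRNA regions below it.

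**Figure D3:**
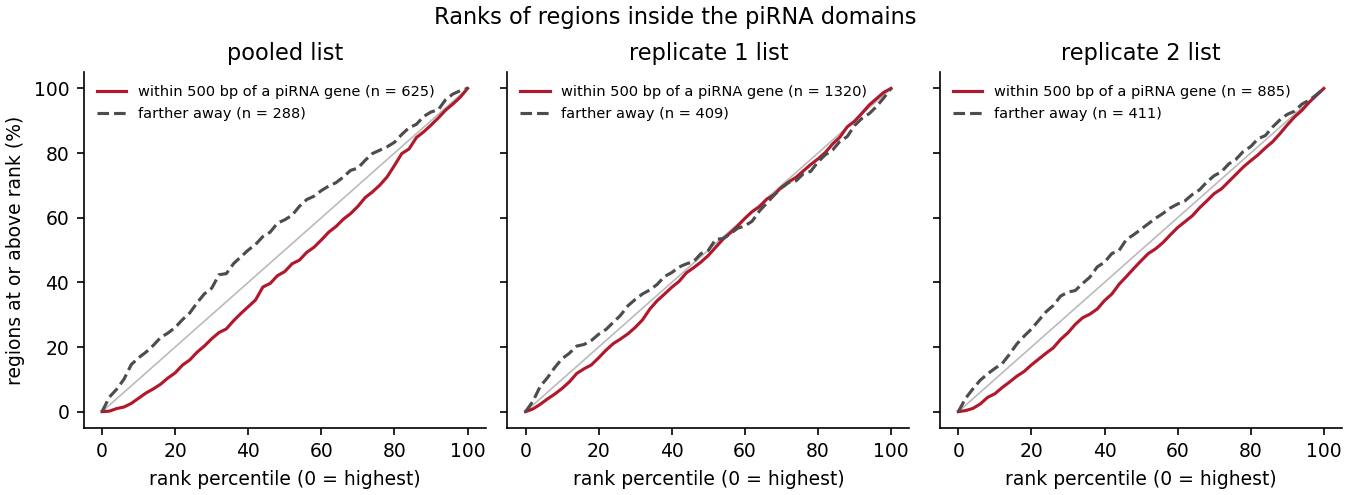
Cumulative share of the regions inside the domains (y axis, percent) at or above each rank percentile (x axis, 0 the highest), for regions within 500 bp of a piRNA gene (solid) and farther away (dashed); the grey diagonal is an even spread. The curves are apart over most of the range in the pooled list and in replicate 2, and only over the higher ranks in replicate 1.

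In the domains base composition differed as well. The 100 bp around the summit was 28.8% ± 7.42 G and C (SD over 625 regions) in the piRNA regions of the domains and 35.9% ± 9.32 (288 regions) in the others; its part in the result was not tested. With more piRNA genes within 500 bp the summits were poorer in G and C, from 31.9% with 1 gene (92 regions) to 29.2% with 2 to 4 (289) and 27.2% with 5 to 9 (232). The median rank percentiles of these groups were 53.9, 59.1 and 57.7. The 12 regions with at least 10 piRNA genes, at 26.5% G and C, stood at 32.5 (21.8 to 59.2). None of the 12 was optimal (0 to 24.2%), too few to set against the 2.12% of all regions.

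Fewer piRNA regions than other regions were found in both replicates. Of the pooled regions, 40.5% had a region of each replicate over their summit. For piRNA regions it was 290 of 861 (33.7%, 30.6 to 36.9%), against 40.9% (40.1 to 41.6%) of the others. In the domains the shares were 204 of 625 (32.6%, 29.1 to 36.4%) and 151 of 288 (52.4%, 46.7 to 58.1%). Over all chromosomes replicate 1 covered slightly more of the piRNA summits (71.7%) than of the others (69.8%), and replicate 2 fewer (58.5% against 66.7%). In the domains the difference lay mostly in replicate 2, which covered 57.1% of the piRNA summits and 72.2% of the others, while replicate 1 covered 71.5% and 75.3%. Outside the domains the shares in both replicates were 38.3% (29.9 to 47.4%) of 115 piRNA regions on chromosome IV and 34.7% (26.8 to 43.5%) of 121 elsewhere, with 41.0% and 40.6% of the other regions.

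Over all regions higher ones were found in both replicates more often, so the shares were also set side by side among regions of like rank. All pooled regions were divided by rank into 4 parts of equal size. In the highest part 70.6% (61.5 to 78.4%) of the domain piRNA regions and 82.8% (73.9 to 89.1%) of the other domain regions were found in both replicates. In the second they were 45.1% and 48.7%, and in the third 22.0% and 27.9%. In the lowest they were 9.74% (6.33 to 14.7%) and 33.9% (22.9 to 47.0%), the only part in which the intervals were apart. The value of the other domain regions there (19 of 56) was high for regions away from piRNA genes. Of such regions in the lowest part, 12.2% on the rest of chromosome IV and 14.4% on the other chromosomes were found in both. Over all chromosomes the piRNA regions of the lowest part were still the lower, with intervals apart. The shares were 8.37% (5.59 to 12.3%) of 263 piRNA regions and 14.4% (13.3 to 15.5%) of 4071 others. Where both replicates had a region, the domain piRNA regions had median heights of 10.4 and 10.1 in replicates 1 and 2 (204 regions), and the others 11.5 and 11.7 (151 regions).

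Values were also taken on either side of 500 bp from the nearest piRNA 5′ end, close to the distance that defined a piRNA region. Regions with their summit 400 to 500 bp from that 5′ end (60) had a median rank percentile of 55.2 (43.2 to 69.8). Of these, 35% were found in both replicates. Those at 500 to 600 bp (53) had a median of 43.5 (29.1 to 56.5) and were found in both in 45.3%. None of either was optimal (0 to 6.02% and 0 to 6.76%), and both intervals include the 2.12% of all regions. The outer group was not free of piRNA regions. It held the one near 21ur-12205, 503 bp from the 5′ end but within 500 bp of the gene.

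The place of piRNA regions relative to protein-coding genes was considered next, because piRNA genes and gene ends are unevenly mixed. In the domains 39.0% of piRNA regions were intergenic and 31.8% intronic, against 17.7% and 21.9% of the other regions, while 10.1% and 29.9% lay within 500 bp of a protein-coding 5′ end. Per Mb of sequence of the same kind, 5′ ends near a piRNA gene had 144 regions (63 regions, 111 to 185) and 5′ ends farther away 254 (86 regions, 203 to 313). None of those 63 was optimal, and 8 of the 86 were, where 2.12% of all regions were. No intervals were computed for these counts, and 63 regions are too few to set against that share. At 5′ ends away from piRNA genes elsewhere, 19 of 502 regions on the rest of chromosome IV and 117 of 3133 on the other chromosomes were optimal, lower shares than in those 86. At 3′ ends the densities were 239 (190 to 297) and 252 (190 to 328). In introns they were 214 (185 to 246) near piRNA genes and 161 (124 to 206) farther away, and between genes 136 (119 to 154) and 104 (77.7 to 137), with overlapping intervals.

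Each replicate list gave the same order at 5′ ends, with 280 (232 to 334) against 345 regions per Mb (285 to 413) in replicate 1 and 211 (170 to 259) against 342 (283 to 410) in replicate 2. The intervals were apart in replicate 2 only. Between genes, piRNA neighbourhoods were the denser in both replicates, with 338 (312 to 366) against 133 (103 to 169) in replicate 1 and 213 (192 to 236) against 131 (101 to 167) in replicate 2. In introns they were denser in replicate 1, at 433 (391 to 477) against 273 (224 to 330), and close in replicate 2, at 281 (248 to 317) against 258 (210 to 313).

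**Figure D4:**
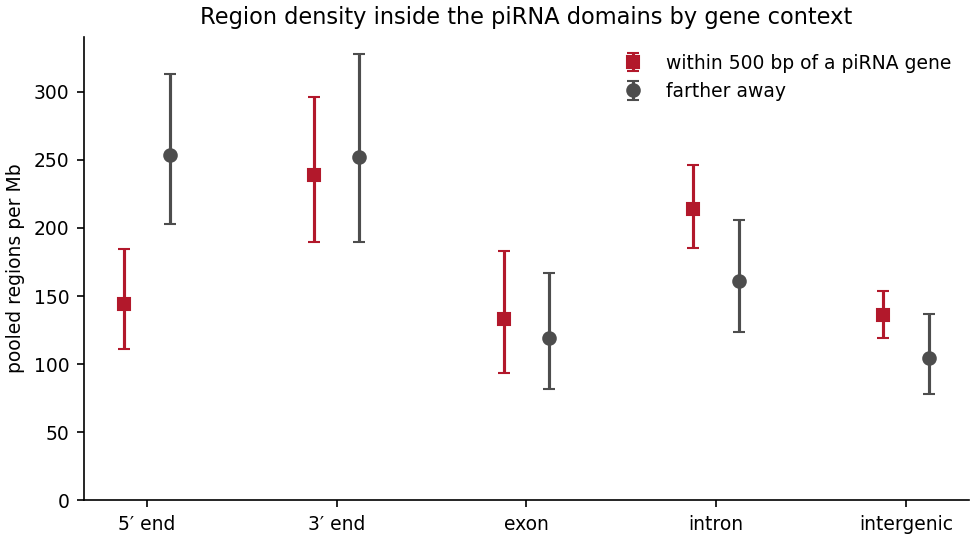
Pooled regions per Mb of sequence of the same class (y axis) inside the domains, for summits within 500 bp of a piRNA gene (squares) and farther away (circles), by position relative to protein-coding genes (x axis); bars are 95% exact Poisson intervals. The intervals are apart at 5′ ends, 144 against 254 per Mb, and overlap in the other 4 classes.

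The ranks by class differed in the pooled list but not alike in the replicates. In the pooled list the median percentile of domain piRNA regions and of the other domain regions was 57.2 against 37.0 at 5′ ends, 69.3 against 40.4 in exons, 61.6 against 42.0 between genes and 55.7 against 40.9 in introns. At 3′ ends it was 40.4 against 43.5, with the piRNA regions slightly the higher in rank. In replicate 1 the medians were 48 against 47.4 at 5′ ends, 43.2 against 51.9 in exons, 53.8 against 50.7 between genes, 50.8 against 51.9 in introns and 49.7 against 41.1 at 3′ ends, so in exons the order was the reverse of the pooled one. In replicate 2 they were 51.2 against 42 at 5′ ends, 50.3 against 40 in exons, 58.9 against 40.9 between genes, 51.7 against 50.7 in introns and 47 against 45 at 3′ ends. No intervals were computed for these medians. On the other chromosomes 43 of 121 piRNA regions (35.5%) lay at a 5′ end against 22.2% of other regions. Their density, 263 per Mb (190 to 354) against 201 (194 to 208), did not differ beyond its interval.

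The 6 optimal piRNA peaks each had a region in both replicates. The highest lay near 21ur-13952 (chrIII:4015434-4015565), with a pooled height of 91.3 and rank 34. It was 33.5 high in replicate 1 (rank 92) and 65.7 in replicate 2 (rank 23). Its summit was in an intron of C36E8.4, 228 bp before the gene's 3′ end and 386 bp downstream of the piRNA's 5′ end. The next, near 21ur-13751 (chrII:1320372-1320767), had a pooled height of 74.2 and rank 68, with 37.6 in replicate 1 (rank 67) and 36.6 in replicate 2 (rank 130). It lay 467 bp upstream of vig-1, which encodes a homologue of a component of the RNA-induced silencing complex of flies, and 131 bp beyond the 3′ end of fcho-1, an endocytic adaptor gene. These peaks on chromosomes III and II ranked 130 or higher in both replicates.

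The domain peaks were lower and less even between replicates. Near 21ur-10291 (chrIV:14838021-14838416) the pooled height was 52.3 (rank 197), with 28.8 in replicate 1 (rank 153) and 19.4 in replicate 2 (rank 1181). The peak over 21ur-1607 (chrIV:13893998-13894393), with 6 piRNA genes within 500 bp, had a pooled height of 44.2 (rank 347), 28.8 in replicate 1 (rank 154) and 17.1 in replicate 2 (rank 1847). It stood 210 bp beyond the 3′ end of lin-66, a gene of developmental timing. Near 21ur-6059 (chrIV:5986005-5986400) the height was 43.7 (rank 362), with 18.1 in replicate 1 (rank 1140) and 30.1 in replicate 2 (rank 271), and the summit was in a coding exon of unc-44, which encodes ankyrin. So 2 of these peaks were the higher in replicate 1 and 1 in replicate 2, and none was among the 368 highest of both. On the rest of chromosome IV, the peak near 21ur-7565 (chrIV:6846061-6846456) was 44.8 high (rank 329), 21.7 in replicate 1 (rank 505) and 24.5 in replicate 2 (rank 528), with its summit in the 3′ UTR of R13H7.2.

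The 3 highest piRNA regions below the threshold ranked unevenly in the replicates. The region near 21ur-14659 (chrIV:7240612-7241007), in gstk-2, a glutathione S-transferase gene, had a pooled height of 43.2 (rank 387) but ranked 16184 in replicate 1 and 159 in replicate 2. That near 21ur-14704 (chrII:6968156-6968551), in C15F1.5, had 43.1 (rank 393), no region in replicate 1 and rank 196 in replicate 2. It lay over sup-39, a small nuclear RNA gene, as did a neighbouring region of rank 710. The region near 21ur-252 (chrIV:15473738-15474133), just inside the 5′ end of Y73F8A.26, had 42.0 (rank 442), rank 249 in replicate 1 and 1373 in replicate 2. Small nuclear, nucleolar, transfer and micro RNA genes were within 500 bp of 18 piRNA regions (2.09%) and of 3.39% of the others.

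Of the other high domain regions, that near 21ur-5 lay in a coding exon of gln-3, a glutamine synthetase gene, with a height of 41.1 (rank 473; 994 and 887 in replicates 1 and 2). That near 21ur-10693 was 36.8 high (rank 672; 1509 and 961), 79 bp beyond the 3′ end of lag-1, the transcription factor of Notch signalling. The regions near 21ur-9689 (35.5, upstream of the dynein light chain gene dlc-5) and 21ur-7654 (34.8, beyond the 3′ end of H25K10.2) came next. That near 21ur-8889, between genes, was 34.1 high and ranked 18138 in replicate 1 and 320 in replicate 2. That near 21ur-8016, in another coding exon of unc-44, was 32.0 high. Among the 1000 highest pooled regions were 9 of 625 domain piRNA regions (1.44%) and 28 of 288 other domain regions (9.72%), against 5.77% of all regions.

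Outside the domains the high piRNA regions again lay in or beside protein-coding genes. Near 21ur-12205 the region stood in an intron of cgt-3, a ceramide glucosyltransferase gene (height 39.7, rank 535; 7468 and 366 in replicates 1 and 2). The gene nrfl-1, which encodes a PDZ scaffold protein, held those near 21ur-15625 (36.5, rank 689) and 21ur-8552 (34.9, rank 825, with no region in replicate 1). That near 21ur-15588 was 34.2 high (rank 883), in the 3′ UTR of sec-61.B, a subunit gene of the protein translocon.

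**Figure D5:**
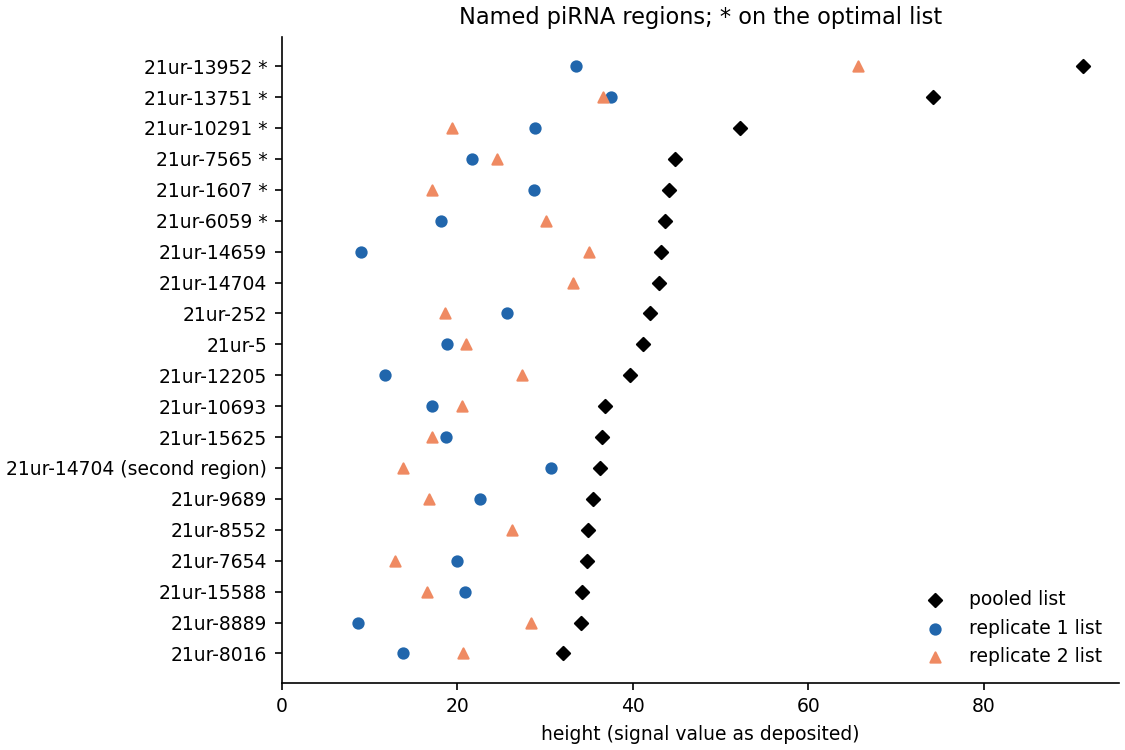
Height (x axis, the authors' signal value) of the 20 named piRNA regions, by nearest piRNA gene (y axis, optimal peaks starred), in the pooled list (diamonds), replicate 1 (circles) and replicate 2 (triangles); a missing mark means no region over the summit. The scale of the heights is not stated, so marks compare regions within a list; 21ur-14659 is low in replicate 1 (9.05) and high in replicate 2 (35.0).

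The 15 optimal peaks of the domains that were not near a piRNA gene ran from rank 43 (height 85.8) to rank 364 (43.7). Their summits stood 655 to 14084 bp from the nearest piRNA 5′ end. Of these, 8 lay upstream of a protein-coding 5′ end: those of dld-1 (a mitochondrial dehydrogenase), mrps-7 (a mitochondrial ribosomal protein), hrpu-1 (an hnRNP), ntl-11, lin-66, eelo-2, W03F8.4 and a further predicted gene. Some of them stood nearer to another gene's 3′ end. The peak of hrpu-1 was 7 bp beyond eef-1B.2 and that of W03F8.4 12 bp beyond lam-1. Those of dld-1 and eelo-2 were 117 bp beyond nspg-9 and 147 bp beyond ZK550.2. The highest peaks, of ranks 43, 44, 58 and 82, lay at a 3′ end, between genes, in an intron and at a 3′ end. At lin-66 both ends of the gene had an optimal peak, the one upstream (height 51.0) without a piRNA gene within 500 bp and the one beyond the 3′ end over 21ur-1607.

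The motif itself was not scarcer in the piRNA regions than in comparable sequence. On either strand it stood in 281 of 625 piRNA regions of the domains (45.0%, 41.1 to 48.9%) and in 3837 of 9571 tiles of the same width whose centre was within 500 bp of a piRNA gene in the domains (40.1%, 39.1 to 41.1%). It was in 22.6% of the piRNA regions on the rest of chromosome IV and in 1 of 121 (0.826%) on the other chromosomes. Of the 288 other domain regions 4.17% held it. A match describes the sequence and is not a measured site.

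The genes that make and use piRNAs were described from a list of 25 names, of which 23 were annotated. They include prg-1, the promoter factors snpc-4 and prde-1, and the factors of piRNA maturation. A pooled region lay within 500 bp of the 5′ end of 4 of the 23 (17.4%), against 19.4% of 19973 protein-coding genes, and 0 of 23 had an optimal peak there, against 0.891%. The highest was at henn-1, which encodes the methyltransferase of piRNA 3′ ends, with a height of 38.9 and rank 575 (3190 in replicate 1 and 882 in replicate 2). The others were at tofu-1, a factor of piRNA 5′ end processing (24.6, rank 2877), at erh-2 of the PETISCO complex (18.1, rank 8592) and at pid-2 (16.2, rank 12063). None of these 3 had a region in replicate 1 over its summit.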

How the data were processed

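Chromatin from 2 biological replicates of whole L3 larvae was analysed. The labels name aly-2 as the antibody's target and describe the ChIP-seq as against eGFP-aly-2. The authors deposited a list of peaks and background regions per replicate and 1 for the pooled replicates, which fed a test of their reproducibility, and the resulting optimal list. Each deposited region has a signal value, used here as its height, and the offset of its summit, another deposited number, in bp from the region's start. The aligner, peak caller, filters and use of a control are not stated in the sources used here. The number of reads behind a region is unknown.

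The 4 lists on ce11 were used. Gene models were those of Ensembl release 115 on WBcel235, and bases were read from RefSeq's copy; coordinates are 1-based. A replicate was counted as having a pooled region if any of its own regions covered the pooled summit. Summits were classed by protein-coding genes: first those at most 500 bp from a 5′ end, then those as close to a 3′ end, and then by exon, intron or neither (intergenic). Densities are counts over the bases of the same kind. Shares have 95% Wilson intervals, densities exact Poisson intervals and medians binomial order-statistic intervals; all cover counting error only. No test between groups was run, since there was 1 group. Computation used Python 3.11.15 with numpy 2.4.6, pandas 2.3.3 and scipy 1.17.1, and was tested on simulated data.

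The members, lists and rules were chosen with earlier results of these data known. Named piRNA genes were those nearest to each optimal piRNA peak, to the 10 highest piRNA regions in the domains, to the 5 highest on the rest of chromosome IV and on the other chromosomes, and to the 3 highest that were not optimal. Alternatives changed the window, the list, the overlap rules, the domain rule and the piRNA genes used.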

Additional observations from a re-analysis of the deposited data

How the results depend on the processing

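In the domains the direction held in every alternative run: piRNA regions had the lower optimal share in 10 of 10 (0 to 1.17% against 2.16 to 6.6%), the lower rank in 8 of 8 (median percentile 51.5 to 59.5 against 39.5 to 50.2) and the lower share found in both replicates in 8 of 8 (23 to 41.1% against 33.3 to 61.5%). These runs largely reuse the same regions, so they are not independent of each other. In the list of replicate 1 the median percentiles, 51.5 and 50.2, had overlapping intervals. Of 48 alternative values, 24 stayed within the 95% interval of the reported value and 24 moved.

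Windows of 100, 250 and 1000 bp made 2.37%, 3.89% and 6.22% of regions piRNA regions (4.97% at 500 bp), put 83.7%, 80.3% and 63.5% of them in the domains (72.6%) and gave 4.13%, 9.45% and 29.8% of piRNA genes a region (17.3%). The 100 bp window left 0.243% of piRNA regions optimal (0.697%), against 2.17% of the other regions. On the higher-ranked part of the optimal list were 0.232% of piRNA regions, against 1.1% of the others. Without either replicate in turn, which replaced the pooled list by the other replicate's own list, the share of regions was 4.49 to 5.76%, the median rank percentile 50.1 to 53.2 (54.9), the share in the domains 73.6 to 76.4% and the share of genes with a region 22.8 to 33.4%. The median of 50.1 and the share of 33.4% came from replicate 1 alone. Any overlap with a replicate region raised the share found in both to 44.4% (33.7%), and asking for a replicate summit within 100 bp lowered it to 24%. Regions apart from protein-coding ends and small RNA genes had a median percentile of 58.9 and 29.8% found in both. Restricting to piRNA genes with the motif gave 2.6% of regions, 90.5% of them in the domains, and domains from bins with at least 20 piRNA genes held 76.1%. The share found in both replicates could not be recomputed without a replicate. No paired analysis was possible because there was 1 group. The unknown depth limits all low-ranked regions, few of which both replicates found.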
